A study of Mus musculus with 54 samples.

Results

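Macrophage identity genes are described here as 10 genes fixed by name, Csf1r, Adgre1, Lyz2, Cd68, Mrc1, Cd14, Ptprc, Aif1, Cd163 and Spi1, all of them present among the 35976 gene rows of the count table. Their read counts were compared in corneal resident myeloid cells (CRMCs), spleen myeloid cells, whole cornea and trigeminal ganglion (TG), the ganglion that holds the cell bodies of the corneal sensory nerves. Levels are given as CPM, the count of a gene scaled to a fixed library total. The sequencing kit reads each transcript once near its 3′ end, so CPM were not divided by transcript length.

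The mice were males of 8 to 12 weeks. Each tissue was read in single mice, of which 3 were SNS-CKO with 4 WT littermates and 5 were MS-CKO with 5 WT littermates. SNS-CKO mice carried Nav1.8-Cre (+/−), which acts in nociceptive sensory neurons, with miR-183C f/f (floxed), and were homozygous for R26 LSL-RFP and for Csf1r-EGFP. Their WT littermates carried the same Cre, RFP and EGFP alleles with miR-183C +/+. MS-CKO mice carried LysM-Cre (+/−), which acts in myeloid cells, with both floxed miR-183C copies and Csf1r-EGFP (+/+), and their WT littermates had the same floxed and EGFP alleles without Cre. Sorted Csf1r-EGFP+ cells came as 1 library per organ (cornea or spleen) and genotype, called pools here although pooling of mice is stated for the corneas alone, from the KO strain (a gene trap of miR-183C, GT/GT, on a mixed 129S2 and C57BL/6 background, with Csf1r-EGFP) with its WT and the MS strain with its WT. EGFP in these mice is driven by the Csf1r promoter, so Csf1r was the sorting gene and its level in the pools is no finding. LysM-Cre is inserted in Lyz2 and disrupts the allele it sits in, so Lyz2 in MS-CKO mice is measured with 1 intact copy.

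Macrophages depend on the receptor CSF1R, which binds the growth factors CSF1 and IL34 and keeps these cells alive. PU.1, the product of Spi1, is the transcription factor that sets up the myeloid program. Tissue macrophages then add surface receptors such as F4/80 (Adgre1), the mannose receptor (Mrc1), the haemoglobin scavenger receptor CD163 and the lipopolysaccharide co-receptor CD14, along with lysozyme M (Lyz2), the lysosomal protein CD68, the cytoskeletal protein IBA1 (Aif1) and CD45 (Ptprc), which all leukocytes carry. In the cornea such cells lie in the stroma and epithelium, and in ganglia they lie around neurons and axons.

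The mature strands of the deleted cluster are shown because a direct effect of its loss on a transcript would begin with a match to these seeds. RefSeq (GRCm38.p6) places all of them on the minus strand, miR-183-5p at chr6:30169711-30169732, miR-96-5p at chr6:30169506-30169528 and miR-182-5p at chr6:30165962-30165986, and the capitals mark the seed, bases 2 to 8.
miR-183-5p: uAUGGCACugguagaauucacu
miR-96-5p: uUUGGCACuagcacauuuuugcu
miR-182-5p: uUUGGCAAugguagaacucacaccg
The matching 7-base sites are GTGCCAT for miR-183-5p, GTGCCAA for miR-96-5p and TTGCCAA for miR-182-5p. No such match occurred in the longest annotated 3′ UTR of any of the 10 genes, which ran from 118 bases in Aif1 to 1669 bases in Csf1r. Of 21020 mouse genes with an annotated 3′ UTR, 23.1% held at least 1 of the sites. The absence says only that these letters are not in these windows.

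Short stretches of promoter are shown for the 4 genes in which the purine core bound by PU.1, searched as GAGGAA on both strands, was found. RefSeq promoters of 300 bases (250 before and 50 after the start, GRCm38.p6) matched 6 of the 10 genes, and Ptprc, Mrc1, Cd68 and Aif1 held the motif against 28.3% of all 32851 promoters. A further Ptprc promoter held 0 matches, and the 28.3% counts promoters and not genes. The capitals mark the motif or its reverse complement. The windows lie at chr1:138175446-138175475 for Ptprc (minus strand), chr2:14229367-14229396 for Mrc1 (plus strand), chr11:69666378-69666407 for Cd68 (minus strand) and chr17:35176042-35176071 for Aif1 (minus strand).
Ptprc: tgttttcctttaGAGGAAaattgagacgaa
Mrc1: aaaagggacagcTTCCTCtgtcctcctttt
Cd68: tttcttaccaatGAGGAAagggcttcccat
Aif1: ataggcacccagTTCCTCcatcctattgtt
A match is a description and not a bound site.

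The libraries differed in kind. Totals ran from 2261266 to 10803867 counts in the 8 sorted pools and from 2366126 to 6741290 in the 34 tissue libraries. Tissue libraries detected 15047 to 18541 genes and spleen pools 7323 to 10559, while corneal pools detected 1650 to 6455, with a median of 573 to 802 counts per detected gene against 190 to 380 in spleen pools. Of the genes that averaged at least 100 CPM in the other 3 corneal pools, 39.7% were at 0 in the KO pool, 65.0% in the KO-strain WT pool, 17.9% in the MS-CKO pool and 42.3% in the MS-strain WT pool, against 0 to 1.45% in the spleen pools. A zero in a corneal pool is read here as not detected. No TG or cornea column has MS in its name. Those with NACC in the name were read as SNS-strain libraries and those without it as MS-strain libraries, which is not certain. A further 11 columns, named for TG or cornea of the KO strain, equal columns read as MS-strain in every row, so the KO strain was not compared in these tissues. The names of 9 of them give the tissue and genotype of the library they equal. The other 2 do not, since a TG KO column equals cornea MS-strain WT 4 and a TG column of KO-strain WT equals TG MS-CKO 3, so the genotype of these libraries is in doubt as well as the strain. Krt12, the keratin of corneal epithelium, was at 20219 to 29858 CPM in the 5 libraries read as MS-strain WT corneas and at 0 to 21.2 CPM in those read as MS-strain WT TG.

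In the sorted corneal pools the 10 genes were not found together. Csf1r, Lyz2 and Cd68 were read in all 4 pools, Cd14, Ptprc and Aif1 in 3, Adgre1 and Mrc1 in 2, Spi1 in 1 and Cd163 in none. In spleen pools 8 of the 10 genes were read in all 4, and Mrc1 and Cd163 in 3. The summed level of the 10 genes was 5976 CPM in the KO, 6977 in the KO-strain WT, 863 in the MS-CKO and 1278 in the MS-strain WT corneal pool, against 3284 to 3518 CPM in the spleen pools. Both MS-strain corneal pools thus held less of these transcripts than any other pool.

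Csf1r (chr18:61100598-61132149, plus strand) stood at 1029, 858, 182 and 322 CPM in the corneal KO and KO-strain WT, then MS-CKO and MS-strain WT pools, against 797, 1259.7, 827 and 651 CPM in the spleen pools of the same strain and genotype. Its 3′ end overlaps 873 bases of Hmgxb3 on the other strand, and the strand setting of the counting is not given in the sources used here. Hmgxb3 itself was at 0 in all 4 corneal pools.

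Spi1 gave the largest fitted difference of the 10 genes between the organs. It was read at 636 CPM in the corneal KO pool and at 0 in the other 3 corneal pools, against 468, 1089, 524 and 363 CPM in the spleen KO and KO-strain WT, then MS-CKO and MS-strain WT pools. The KO corneal pool thus lay inside the spleen range and the other 3 lay below it. With each pair of pools as a block, edgeR's quasi-likelihood test called Spi1 lower in CRMCs, with a fitted log2 change of −13.29 (SE 3.76, adjusted p = 0.0357, 4 pools each), a size that depends on the zeros and is no bound. It was 1 of the 10 genes called, against 1.21% of all 10226 genes tested. Spi1 did not pass the filter among the corneal pools alone, so its call follows from the spleen pools in which it was high. The call was lost with RLE size factors (adjusted p = 0.0621), with no filter on low counts (0.0507) and without the block (0.835), and without the KO-strain WT, MS-CKO or MS-strain WT pair (0.136, 0.371 and 0.359). DESeq2 called Spi1, Adgre1 and Cd163, along with 5373 genes in all, and Cd163 too did not pass the filter among the corneal pools alone.

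Among the surface receptors, Cd14 was read at 1229.6, 2636, 158 and 0 CPM in the corneal KO and KO-strain WT, then MS-CKO and MS-strain WT pools, against 16.2, 4.09, 12.4 and 56.9 CPM in the spleen pools. It was higher in cornea in 3 of 4 pairs, by 4.38 on the log2 scale in the fit (SE 3.21, edgeR adjusted p = 0.398), which is within the spread between pairs. Ptprc ran the other way, at 0, 46.9, 105 and 379 CPM in the corneal pools against 658, 479.5, 959.9 and 1022 CPM in the spleen pools. Its 2 sets did not overlap, as was the case for 20.5% of all genes tested, and its fitted change was −4.41 (SE 2.02, edgeR adjusted p = 0.286). Cd163 was at 0 in every corneal pool and at 14.8, 0, 37.5 and 45.7 CPM in the spleen pools (fitted log2 change −10.00, SE 5.63, edgeR adjusted p = 0.346). The floor of 3 counts lay between 0.278 and 1.33 CPM in the corneal pools.

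Adgre1 was uneven among the corneal pools. It stood at 1059.6 CPM in the KO-strain WT pool and 22.3 CPM in the MS-CKO pool and at 0 in the KO and MS-strain WT pools, against 87.0, 20.4, 61.6 and 93.5 CPM in the spleen KO and KO-strain WT, then MS-CKO and MS-strain WT pools. Mrc1 was read at 6.57 CPM in the MS-CKO and 50.2 CPM in the MS-strain WT corneal pool and at 0 in both KO-strain corneal pools, while the spleen pools held 13.8, 0, 24.3 and 41.3 CPM. For both genes the corneal and spleen values overlapped.

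Of the effector genes, Lyz2 was at 2368, 933, 77.5 and 19.8 CPM in the corneal KO and KO-strain WT, then MS-CKO and MS-strain WT pools, against 1074, 279, 699 and 1070.3 CPM in the spleen pools. It was higher in cornea in both KO-strain pairs and lower in both MS-strain pairs (log2 change −1.88, SE 1.80, edgeR adjusted p = 0.481). Cd68 was at 627, 674, 166 and 507 CPM in the corneal pools against 217, 44.9, 187 and 131 CPM in the spleen pools, higher in cornea in 3 of 4 pairs. Aif1 was at 86.1, 770.4, 145 and 0 CPM in the corneal pools against 12.4, 108, 6.84 and 43.1 CPM in the spleen pools, again higher in 3 of 4. None of these 3 passed the test. Over the 10 genes the median fitted log2 change was −2.06, and over all genes tested it was −6.30.

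**Figure D1:**
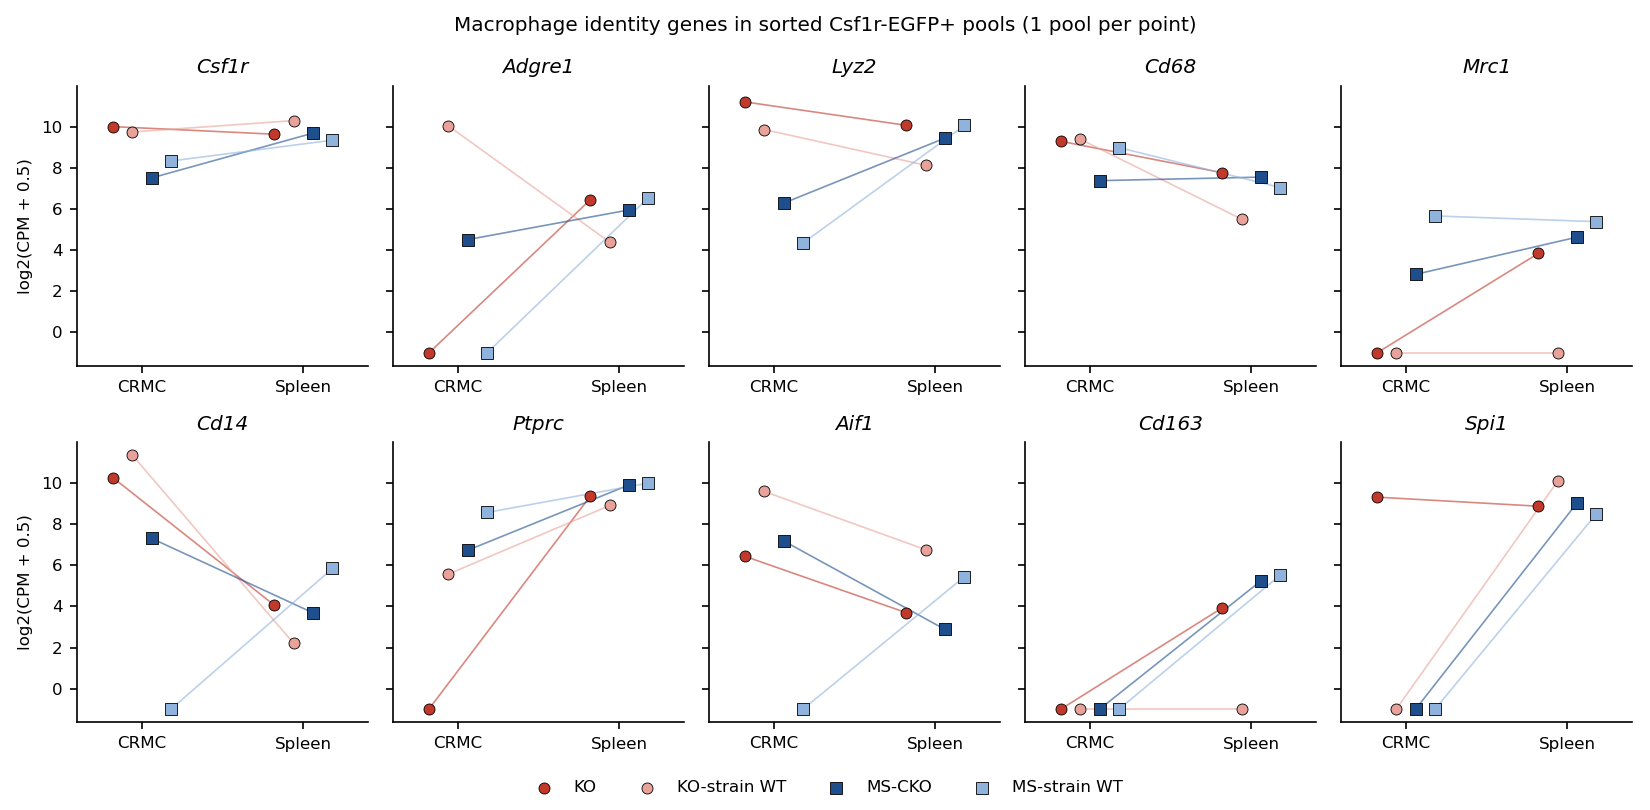
Level of each of the 10 genes as log2(CPM + 0.5) in the 4 sorted corneal pools (CRMC, left) and the 4 spleen pools (right), with 1 pool per point and a line between pools of the same strain and genotype. Spi1 sits at 636 CPM in the corneal KO pool and at the lower edge, 0 CPM, in the other 3 corneal pools, and Cd163 sits at 0 CPM in all 4 corneal pools.

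Transcripts of other corneal cells were present in every corneal pool. The 5 epithelial genes summed to 9902 to 41918 CPM in corneal pools against 426 to 665 CPM in spleen pools, and the 5 keratocyte genes to 7456, 12423, 56109 and 64364 CPM in the corneal KO and KO-strain WT, then MS-CKO and MS-strain WT pools against 0 to 2.14 CPM in spleen. The keratocyte sum was highest in the MS-strain pools, which had the lowest summed level of the macrophage genes. Of 10 neutrophil genes, 8 to 10 were at 0 in each corneal pool, and they summed to 0 to 518 CPM there against 19194 to 44807 CPM in spleen. The 4 B cell genes were at 0 in every corneal pool and summed to 1603 to 2514 CPM in spleen, and the 5 red cell genes summed to 0 to 185 CPM in corneal pools and 2788 to 55665 CPM in spleen. The part of these cells in the levels above was not tested.

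The wider macrophage lists gave 2 calls between the organs, where 1.21% of all 10226 genes tested were called. None of the 9 tested of 10 macrophage transcription factor genes and none of the 5 tested of 6 genes of the CSF1R axis passed in edgeR. Of 23 tested of 29 receptor and effector genes, 2 were lower in CRMCs, Ly6c2, a marker of classical monocytes (log2 change −14.76, SE 3.48), and Itgb2, the shared chain of the leukocyte integrins (−13.39, SE 3.28). As for Spi1, sizes this large depend on zeros in the corneal pools and are no bound. Genes of these lists could also pass the filter through the spleen pools in which they were high, and calls of lower can follow from that. Beyond these lists, Cd74, the chaperone of MHC class II and a dendritic cell list gene, was lower in CRMCs by −1.66 on the log2 scale (SE 0.35, edgeR adjusted p = 3.9e-04). It was the 1 of 8 genes of its list that was called. Its levels overlapped, at 1755 to 18922 CPM in corneal pools and 7429 to 19392 CPM in spleen pools.

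Loss of miR-183C in the pools was set against WT with 1 pool per strain and genotype, and the 95% intervals below cover counting error only. A fit over both strains, with strain as a term and 1 residual degree of freedom in each organ, treats the KO and MS-CKO pools as replicates although they differ in allele. In it edgeR called none of the 8 genes that passed the filter in corneal pools, where 0.172% of 3493 genes were called, and none of the 10 in spleen pools, where 0% of 9285 were called. The unadjusted p was under 0.05 for 31 and 142 genes, and DESeq2 also called none of the 10 genes in either organ, with 609 and 18 genes called in all. Lyz2 was higher in both null corneal pools, at 2.54 times the KO-strain WT level in the KO pool (exact binomial interval 2.42 to 2.66) and 3.92 times the MS-strain WT level in the MS-CKO pool (3.25 to 4.75). In spleen it went apart, at 3.85 times WT in the KO pool (3.63 to 4.08) and 0.653 times WT in the MS-CKO pool (0.633 to 0.674). Ptprc was lower in both null corneal pools, at 0 CPM in the KO pool against 46.9 CPM in its WT pool, which is at least 65.9-fold lower by the 3-count floor, and at 0.278 times WT in the MS-CKO pool (0.259 to 0.299). Lyz2 and Ptprc were the 2 of 7 genes with at least 50 counts in both pairs that differed by 2-fold or more the same way in both strains, where 46.3% of all 2390 such genes did.

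Aif1 was the 1 of 10 genes that differed this way in spleen. It stood at 0.116 times WT in the KO pool (0.0902 to 0.146) and at 0.159 times WT in the MS-CKO pool (0.121 to 0.206), and 18.2% of all 7903 genes did the same. In the corneal pools Aif1 was at 0.112 times WT in KO (0.0996 to 0.125) and, with 145 CPM against 0, at least 318-fold higher in MS-CKO. Csf1r was at 1.20 times WT (1.14 to 1.27) in the corneal KO and 0.565 times (0.531 to 0.601) in the corneal MS-CKO pool. The null corneal pools detected 3488 and 6455 genes in KO and MS-CKO, against 1650 and 3380 in their WT pools, and genotype cannot be told apart from this difference.

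Lyz2, Cd68 and Ptprc, beside the sorting gene Csf1r, lay above every WT whole cornea in both WT corneal pools, and Spi1 lay below every one. The 2 pools and 9 corneas thus did not overlap for 5 of the 10 genes, against 79.5% of genes tested. Adgre1, Mrc1 and Cd163 did not pass the filter on low counts. Csf1r, Lyz2, Cd14, Ptprc and Aif1 passed it here and in neither cornea comparison of CKO with WT, so their calls follow from the pools in which they were high, and edgeR called 84.4% of 12950 genes tested, with 5.5% higher and 78.9% lower. Cd68 was at 674 and 507 CPM in the KO-strain and MS-strain WT pools against 6.82 to 15.6 CPM (median 10.96) in WT corneas, a log2 change of 4.72 (SE 0.26, edgeR adjusted p = 8.8e-09). Lyz2 was at 933 and 19.8 CPM against 0 to 0.445 CPM, with a fitted log2 change of 10.21 (SE 0.96), of 6.49 without the KO-strain WT pool and of 11.09 without the MS-strain WT pool. Ptprc was at 46.9 and 379 CPM against 0.207 to 1.69 CPM, with a change of 7.81 (SE 0.70), of 8.67 without the KO-strain WT pool and of 4.74 without the MS-strain WT pool. Csf1r, the sorting gene, was at 858 and 322 CPM against 0 to 6.76 CPM. SEs and p-values of this comparison, here and below, rest mostly on the spread between the 9 corneas and little on that between the 2 pools.

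For 2 genes the direction rested on 1 pool. Cd14 was at 2636 and 0 CPM in the KO-strain and MS-strain WT pools against 0.357 to 2.75 CPM in WT corneas, and Aif1 at 770.4 and 0 CPM against 0 to 3.34 CPM. Their fitted log2 changes of 8.16 (SE 1.31) and 6.34 (SE 1.27) turned to −6.05 and −6.09 without the KO-strain WT pool. Spi1 was at 0 CPM in both pools against 0.357 to 5.17 CPM, and its fitted change of −6.92 (SE 1.33) was −7.12 to −6.79 without each library. It turned to 5.02 when all 4 corneal pools were set against all 17 corneas. The median change of all genes tested was −8.02, in pools that detected 1650 and 3380 genes.

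Of the wider lists in this comparison, 10 of 16 tested of 29 receptor and effector genes were higher in the pools and 5 lower. Over all 12950 genes tested 5.5% were higher and 78.9% lower, with a median change of −8.02. The falls below are read in pools that detected 1650 and 3380 genes. Genes of these lists, too, could pass the filter through the pools in which they were high. C1qc and Nr4a1 passed it in neither cornea comparison of CKO with WT, so their rises follow from that. The count of 10 higher includes such genes. C1qb, a chain of complement C1q, rose by 8.70 (SE 0.64) and C1qc, another chain, by 8.75 (SE 0.75), while Itgam, the CD11b chain, was at −12.54 (SE 0.38) and Tlr4, the lipopolysaccharide receptor, at −10.33 (SE 0.41). Of the 9 tested of 10 transcription factor genes, 7 were lower, near the share of all genes, among them Runx1 (−10.75, SE 0.37). The 1 higher was Nr4a1 (9.18, SE 1.26), named after its value was seen. The CSF1R ligand genes Il34 (−8.51, SE 0.56) and Csf1 (−7.61, SE 0.75) were lower in the pools and Csf2ra was higher (4.54, SE 0.25). All 5 keratocyte genes were higher in the pools, among them Lum (4.07, SE 0.38), and 4 of 5 epithelial genes lower.

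In whole tissue the macrophage genes were low, and 7 of the 10 were lower in every WT cornea than in any WT TG. Across 9 WT corneas and 9 WT TG of both strains, the values did not overlap for 8 of the 10 genes, against 57.3% of genes tested. These 7 genes passed the filter here and in neither cornea comparison of CKO with WT, so that their calls follow from the TG in which they were high. edgeR called 84.3% of 13859 genes tested, 44.3% lower and 39.9% higher in cornea, which is the background of the values below. Fewer macrophages and less RNA per macrophage cannot be told apart in bulk tissue.

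Csf1r was at 0 to 6.76 CPM (median 1.81) in WT corneas against 22.5 to 46.6 CPM (median 28.3) in WT TG, a log2 change of −3.55 (SE 0.30). Mrc1 gave the largest fall of the 9 genes tested, at 0 to 1.87 CPM (median 0.742) in corneas against 15.5 to 32.4 CPM (median 23.4) in TG (−4.81, SE 0.32). Csf1r and Mrc1 were the most abundant of the 10 genes in the TG, and the other 8 lay at means of 2.30 to 7.57 CPM in WT TG. Hmgxb3, which overlaps Csf1r, was at 9.29 to 18.7 CPM in WT corneas and 16.04 to 31.4 CPM in WT TG.

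Lyz2 was at 0 in 6 of 9 WT corneas and at most 0.445 CPM, against 1.48 to 7.24 CPM (median 3.6) in WT TG (−4.74, SE 0.54). Cd163 was at 0 in 7 of 9 corneas and at most 1.69 CPM, against 2.52 to 7.80 CPM (median 5.43) in TG (−4.23, SE 0.57). Adgre1 was at 0 to 1.11 CPM in corneas against 2.07 to 8.40 CPM in TG (−3.15, SE 0.49), and Ptprc at 0.207 to 1.69 CPM against 3.90 to 11.7 CPM (−3.44, SE 0.35). Aif1 fell least of the 7, at 0 to 3.34 CPM in corneas against 3.38 to 10.5 CPM in TG (−1.82, SE 0.37).

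Cd68 ran against the rest. It was at 6.82 to 15.6 CPM (median 10.96) in WT corneas against 0.947 to 5.63 CPM (median 3.51) in WT TG, higher in cornea by 1.83 on the log2 scale (SE 0.26, edgeR adjusted p = 2.9e-07). Within the SNS strain the change was 1.52 and within the MS strain 2.09. Spi1 overlapped, at 0.357 to 5.17 CPM in corneas against 2.04 to 12.2 CPM in TG (−0.58, SE 0.36, edgeR adjusted p = 0.129). Cd14 did not pass the filter and overlapped too, at 0.357 to 2.75 CPM in corneas against 0.371 to 4.48 CPM in TG. Among the 10 genes the cornea thus held Cd68 at the highest level, with a mean of 11.5 ± 3.24 CPM (SD, n = 9), then Spi1 at 3.02 ± 1.52 and Csf1r at 2.49 ± 2.20 CPM, which did not differ beyond their spread. Below these came Aif1 at 1.73 ± 1.19 and Cd14 at 1.63 ± 0.741 CPM, and the other 5 genes averaged 0.120 to 0.612 CPM.

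**Figure D2:**
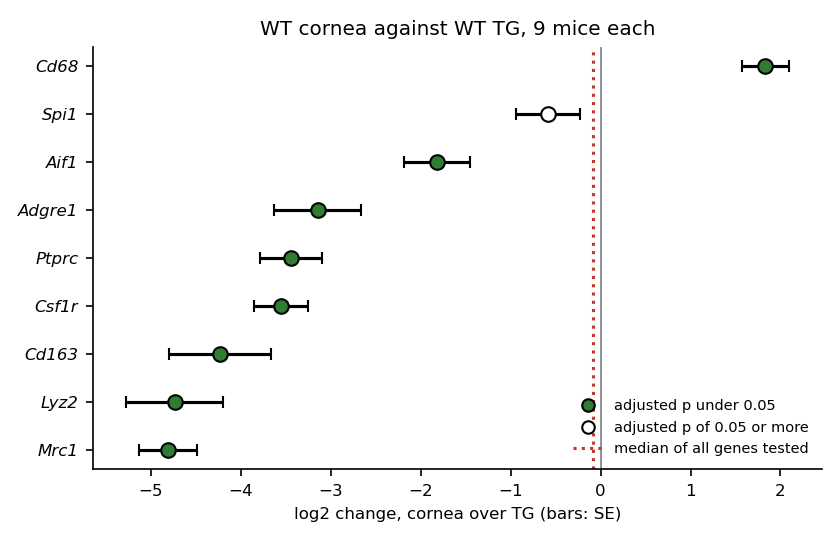
Log2 change of WT cornea over WT TG (9 mice each) for the 9 genes that passed the filter, with bars for the SE, filled points where the adjusted p was under 0.05 and a dotted line at the median of all genes tested. Cd68 lies at 1.83, Spi1 at −0.58 as the open point, and the other 7 genes between −4.81 and −1.82. These 7 passed the filter through the TG in which they were high, and their filled points follow from that.

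Wider lists were divided between the tissues, and their genes too could pass the filter through the tissue in which they were high. Of 19 tested of 29 receptor and effector genes, 13 were lower in cornea and 6 higher. Lower were the fractalkine receptor Cx3cr1 (−3.24, SE 0.21) and the complement gene C1qb (−3.11, SE 0.26), while Itgam (5.85, SE 0.13) and Tlr4 (2.34, SE 0.15) were higher in cornea. Itgam and Tlr4 were both lower in the sorted WT corneal pools than in whole cornea, and which corneal cells held them was not tested. Of 9 tested of 10 transcription factor genes, 5 were higher, among them Klf4 (7.60, SE 0.12), which corneal epithelium also expresses, and 3 lower, among them Maf (−3.87, SE 0.10) and Nr4a1 (−5.17, SE 0.40). The ligand genes Il34 (−1.89, SE 0.14) and Csf1 (−1.32, SE 0.21) and the related receptor Flt3 (−7.05, SE 0.43) were lower in cornea, and the receptor chain Csf2ra was higher (0.77, SE 0.15). In the same comparison all 5 red cell genes were lower in cornea, with summed levels of 5.08 to 269 CPM in WT corneas and 1144 to 3824 CPM in WT TG. The part of blood in the TG levels was not tested.

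With miR-183C deleted in sensory neurons, the 10 genes overlapped between SNS-CKO and WT mice in the TG. edgeR called none of them in SNS-CKO against SNS-strain WT, where 0.0392% of 12769 genes tested were called, and DESeq2 called none of them either. At an unadjusted p under 0.05 the count over all genes was 852 in edgeR and 661 in DESeq2. Among the red cell genes Hbb-bs, an adult beta globin, was lower in SNS-CKO TG (−1.11, SE 0.20, edgeR adjusted p = 0.0149), and the summed red cell level was 859 to 1404 CPM in SNS-CKO mice against 1144 to 3370 CPM in WT mice, whose part in the macrophage values was not tested. Csf1r was at 20.5, 26.4 and 34.1 CPM in SNS-CKO TG against 26.3, 22.5, 28.3 and 36.2 CPM in WT TG (log2 change −0.07, SE 0.19). Ptprc was at 7.49, 4.15 and 7.37 CPM in SNS-CKO against 11.7, 5.95, 7.85 and 7.12 CPM in WT (−0.38, SE 0.35, adjusted p = 0.885). Of the genes tested, 7.29% did not overlap between the groups. Over the 10 genes the median log2 change was −0.02.

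With miR-183C deleted in myeloid cells, 8 of the 10 genes in the TG passed the filter and none was called in MS-CKO against WT mice, as was none of the 12480 genes tested, a share of 0%. The unadjusted p was under 0.05 for 372 genes in edgeR and 396 in DESeq2. Csf1r was at 34.9, 36.7, 36.3, 24.9 and 24.9 CPM in MS-CKO TG against 31.7, 37.2, 46.6, 23.6 and 25.6 CPM in WT TG (−0.07, SE 0.19). Ptprc was at 3.27 to 6.67 CPM in MS-CKO against 3.90 to 9.10 CPM in WT (−0.50, SE 0.34), and Aif1 at 3.02 to 6.40 CPM against 3.38 to 7.80 CPM (−0.52, SE 0.36), with an edgeR adjusted p of 0.999 for each. All 10 genes overlapped between the groups, where 0.513% of genes tested did not.

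Lyz2, the gene that carries the Cre, had the lowest exact p of the 10 genes over both tissues. In the TG it was at 0.794, 0.754, 1.07, 2.36 and 2.04 CPM in MS-CKO mice against 2.34, 3.6, 6.25, 7.24 and 5.70 CPM in their WT littermates. A single MS-CKO mouse lay above the lowest WT mouse, at 2.36 against 2.34 CPM. Lyz2 was at 6.05, 4.39 and 2.34 CPM in SNS-CKO TG against 2.92, 3.10, 6.17 and 1.48 CPM in SNS-strain WT TG, with wide overlap (log2 change 0.32, SE 0.48, edgeR adjusted p = 0.940).

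The mean of log2(CPM + 0.5) for Lyz2 was lower in MS-CKO by 1.53 (0.84 in MS-CKO, 2.38 in WT, exact two-sided permutation p = 0.0159, n = 5 each). It was the 1 of 40 such tests of members with a p under 0.05, no more than this threshold allows by chance over 40 tests. The permutation test was not run over all genes, so no share of them can be set beside it. Lyz2 did not pass the filter on low counts, and with no filter edgeR gave −1.86 (SE 0.55, unadjusted p = 6.9e-04, adjusted p = 0.804 over all genes). Among libraries with no B2 tag in the name the difference in mean log2 was −1.86 (exact p = 0.0571, 3 MS-CKO and 4 WT) and among those with the tag −1.20 (2 MS-CKO and 1 WT). The strain difference, the MS response minus the SNS response, was −2.18 (SE 0.73, unadjusted p = 0.0052), with an edgeR adjusted p of 0.998 over all genes. None of the 10 genes was called for it, beside 0.00728% of 13728 genes. If the libraries without the tag were of the SNS strain, the other reading of the names, Lyz2 in the TG would be −2.46 in SNS-CKO and −0.17 in MS-CKO, and the strain difference 2.28. The Lyz2 values were known when the names were read. Without TG MS-CKO 3, whose equal column is named as WT, the difference in mean log2 was −1.49 (exact permutation p = 0.0238, 4 MS-CKO and 5 WT).

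Lyz1, a near copy next to Lyz2 (chr10:117277331-117282321, minus strand), shares 15.4% of the 50-base windows of the Lyz2 transcript and 21.9% of those in its last 300 bases, where these libraries read, so reads could be divided between them. Lyz1 was at 0.503 to 3.44 CPM in MS-CKO TG against 0.186 to 5.46 CPM in WT TG, with overlap. The 10 neutrophil genes, which mark another lysozyme-rich cell, summed to 0.800 to 34.4 CPM in MS-CKO TG and 2.60 to 35.8 CPM in WT TG.

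**Figure D3:**
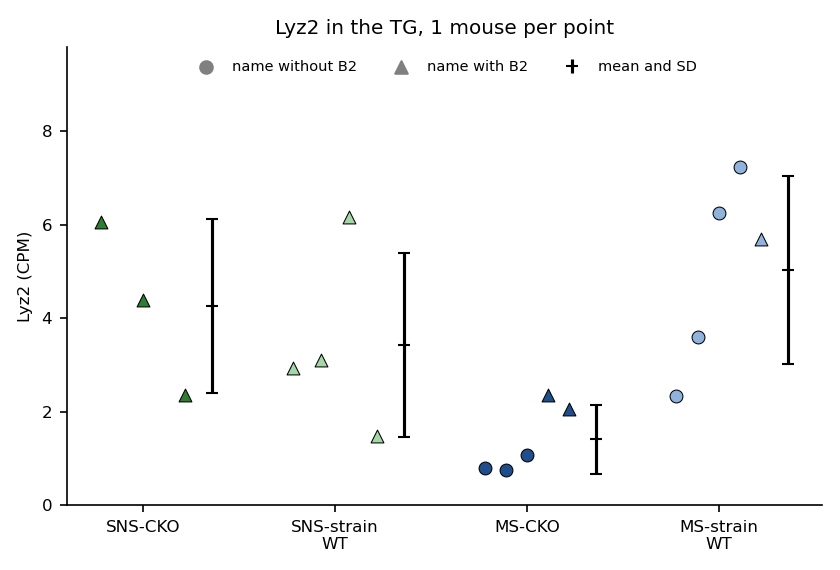
Lyz2 in CPM in the TG of SNS-CKO and SNS-strain WT, then MS-CKO and MS-strain WT mice, with 1 mouse per point, triangles for libraries with B2 in the name and bars for the mean and SD. The 5 MS-CKO mice lie between 0.754 and 2.36 CPM and the 5 MS-strain WT mice between 2.34 and 7.24 CPM.

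The 3 wider macrophage lists held no call in the TG of either CKO. In SNS-CKO TG the lowest unadjusted p of the CSF1R axis list (4 tested of 6) were those of Il34 at 0.38 (SE 0.16) and Csf2ra at 0.17 (SE 0.16), with edgeR adjusted p of 0.705 and 0.890. Those of the transcription factor list (9 of 10) included that of Runx1 at −0.27 (SE 0.12), and those of the receptor and effector list (18 of 29) were those of Ccr2 at −0.59 (SE 0.33) and Tlr4 at −0.74 (SE 0.42). In MS-CKO TG the corresponding genes were Csf2ra (0.31, SE 0.19), Il34 (0.18, SE 0.18), Irf8 (−0.82, SE 0.43), Nr4a1 (−0.34, SE 0.21), Fcer1g (−0.68, SE 0.28) and Ctss (−0.32, SE 0.17), with an edgeR adjusted p of 0.999 for each.

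In whole cornea only Cd68 and Spi1 passed the filter, and neither was called in either strain, where no gene of 11463 (SNS) or 11830 (MS) tested was called, a share of 0%. The unadjusted p was under 0.05 for 715 and 421 genes in edgeR and for 551 and 451 in DESeq2. Cd68 was at 7.0, 15.4 and 10.7 CPM in SNS-CKO against 13.0, 10.6, 14.4 and 8.02 CPM in SNS-strain WT corneas (−0.05, SE 0.31). It was at 8.73, 13.1, 10.05, 14.8 and 14.8 CPM in MS-CKO against 8.90, 6.82, 10.96, 15.6 and 15.4 CPM in MS-strain WT corneas (0.11, SE 0.26). Spi1 was at 3.08 to 4.0 CPM in SNS-CKO against 2.96 to 5.17 CPM in WT corneas (−0.05, SE 0.43), and at 1.06 to 5.70 CPM in MS-CKO against 0.357 to 3.86 CPM in WT corneas (0.15, SE 0.56). The groups overlapped for all 10 genes in both strains, where 6.31% and 0.634% of genes tested did not.

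Csf1r, which marks the cells that were sorted, was at 2.33, 1.5 and 1.23 CPM in SNS-CKO against 1.0, 1.12, 6.76 and 1.81 CPM in SNS-strain WT corneas. It was at 1.28, 0.475, 7.03, 1.64 and 1.20 CPM in MS-CKO against 4.66, 0.742, 2.38, 3.94 and 0 CPM in MS-strain WT corneas. Each group held 1 or more mice over 2 CPM, and the groups overlapped (exact permutation p = 0.886 in SNS and 0.944 in MS). The size of difference that could be seen at these levels was not tested. Lyz2 was at 0 in 13 of 17 corneas, with at most 0.445 CPM in the other 4. A strain difference in the cornea was tested for 5 of the 10 genes and none was called, as was none of 13031 genes, a share of 0%, with 323 at an unadjusted p under 0.05 in edgeR and 341 in DESeq2.

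**Figure D4:**
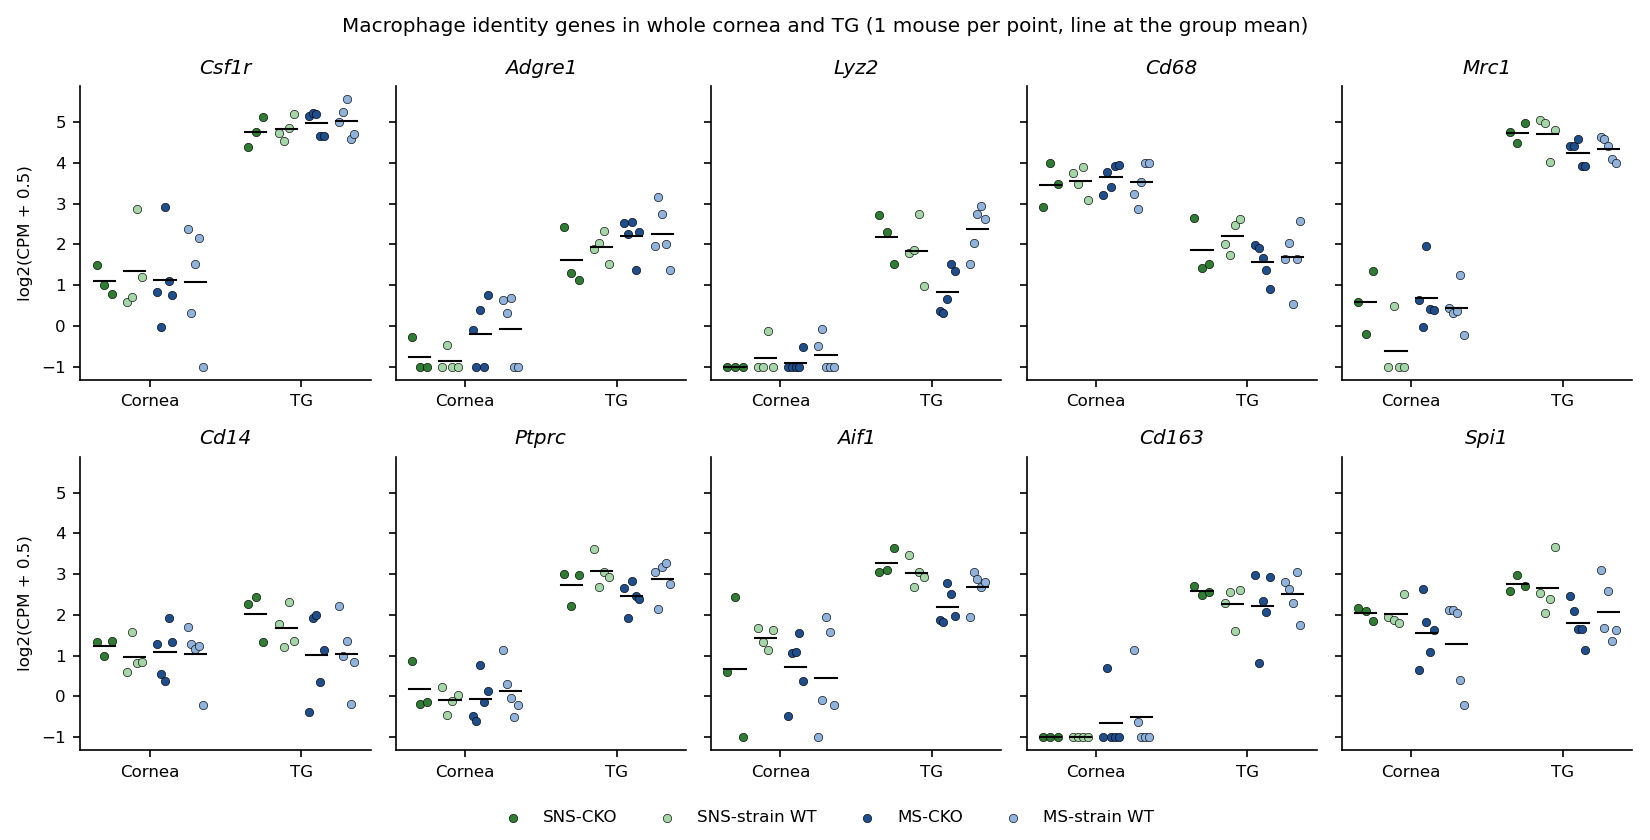
Level of each of the 10 genes as log2(CPM + 0.5) in whole cornea (left) and TG (right) of SNS-CKO and SNS-strain WT, then MS-CKO and MS-strain WT mice, with 1 mouse per point and a line at the group mean. Cd68 is higher in cornea, at 6.82 to 15.6 CPM over all 17 mice, and Csf1r and Mrc1 are at 20.5 to 46.6 and 14.7 to 32.4 CPM in the TG.

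In cornea these lists also held no call. In SNS-CKO corneas the lowest unadjusted p included those of C1qa (−1.08, SE 0.48, edgeR adjusted p = 0.781) and Itgam (−0.13, SE 0.12) among 9 tested receptor and effector genes, of Maf (−0.45, SE 0.20) among 8 transcription factor genes, and of Csf2ra (−0.47, SE 0.27) and Csf1 (−0.61, SE 0.50) among 3 of the CSF1R axis. In MS-CKO corneas they included those of Ctss (0.35, SE 0.20) and Mertk (−0.24, SE 0.22) among 10, of Cebpa (−0.12, SE 0.17) among 8, and of Csf1 (−0.58, SE 0.43) and Csf2ra (−0.15, SE 0.25) among 3, each at an edgeR adjusted p of 0.999.

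Across the 17 corneas, after the group means of log2(CPM + 0.5) were subtracted, the genes most like Csf1r among 10148 genes of at least 5 CPM included Rab2b, Ilvbl, Plcb4 and Gpr171, with Pearson's r of 0.825, 0.816, 0.814 and 0.794. Those most like Lyz2 were Zmynd11, Rasa2, Smim15, Chfr and Ccne1, with r of 0.868, 0.801, 0.760, 0.760 and 0.743. These values are the highest of many and rest on few counts, since Csf1r averaged 2.30 CPM and Lyz2 0.0753 CPM over the 17 corneas, and the points share tissue, depth and strain.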

How the data were processed

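The deposited table holds the authors' read counts per gene, whole numbers with no normalization, from QuantSeq 3′ FWD libraries that the authors aligned to mm10 with STAR and counted with HTSeq. For tool versions, annotation and strand setting, the sources used here name none. Of its columns 42 were used, 11 were only compared with the others, each being equal in every row to an MS-strain column, and 1 column of other per-sample values was not used. TG and cornea columns with NACC in the name were read as SNS and the others as MS, and pools named CKO without MS were taken as KO by their sample titles. Values of these samples had been seen, and the 10 members and all gene lists were chosen with earlier results of these data known.

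Counts were tested in edgeR 4.0.16 (R 4.3.3) with TMM factors, filterByExpr, the quasi-likelihood F test and Benjamini-Hochberg adjustment over all genes tested, at 0.05. CKO was set against WT within strain and tissue, and the strain difference was an interaction. CRMC and spleen pools were blocked by strain and genotype, and cornea and TG of WT mice were fitted with strain as a covariate. Single members were also compared by exact permutation of log2 CPM with 0.5 CPM added. Alternatives were DESeq2 1.42.0, RLE factors, no filter, other blocks and samples, and leaving out libraries. Fits within each strain for cornea against TG and null against WT pools with strain as a term were added after seeing the data. So were the tests of Lyz2 without each library and among libraries with or without the B2 tag. Named genes were all members, and from each list up to 4 passing genes or, where none passed, the 2 with the smallest p in the tissue comparisons, with the 5 genes most like Csf1r and Lyz2 by Pearson's r. Some genes that this rule names are not reported here. Tests were checked on simulated data for the TG of MS-CKO mice, corneal against spleen pools and cornea against TG. The simulated pools had a fixed spread and did not copy the many zeros of the corneal pools, so the check does not cover those. Intervals are exact binomial at 95% and, like the floor of 3 counts, cover counting error only. Tissue libraries are of single mice, and p-values over pools alone measure the spread between pools. Those of pools against whole cornea rest mostly on the spread between single corneas.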

Additional observations from a re-analysis of the deposited data

Results flagged for a closer look

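In groups of 4 or 5 libraries, 9 of 59 tests set 1 library apart from its group by Dixon's criterion, and all of them were in whole cornea. Chance does so in about 1 in 20 groups of continuous values, a rate that does not apply to 5 of the 9, in which every other library was at 0 and a single read is enough. Csf1r was at 7.03 CPM in cornea MS-CKO 3, against 0.475 to 1.64 CPM in the other 4, and Mrc1 in the same library at 3.42 CPM, against 0.475 to 1.06 CPM. Csf1r was at 6.76 CPM in cornea SNS-strain WT 3, against 1.0 to 1.81 CPM in the other 3, and Lyz2 there at 0.423 CPM against 0. In cornea SNS-strain WT 2, Adgre1 was at 0.225 CPM and Mrc1 at 0.900 CPM, with the other 3 at 0. Lyz2 was at 0.201 CPM in cornea MS-CKO 5 with the other 4 at 0. Cd163 was at 1.11 CPM in cornea MS-CKO 2 with the other 4 at 0, and at 1.69 CPM in cornea MS-strain WT 1, against 0 to 0.148 CPM.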

How the results depend on the processing

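The count of members called in CRMCs against spleen was 1, and 0 with RLE factors, with no filter or without the block, 3 with DESeq2, and 0 to 1 without each pair of pools. In WT cornea against TG it was 8, and 5 within the SNS strain, where 6 members passed the filter. It was 8 with strain and replicate number as a replicate block, although no source says that a cornea and a TG of the same number came from 1 mouse and their deviations correlated at 0.00207 to 0.147. With the replicate number as a block the count stayed at 0 in the 4 CKO comparisons. Replicate numbers did not pair CKO with WT libraries (correlation of deviations −0.0843 to 0.18). With the block, Csf1r in SNS-CKO TG was 0.051 and Spi1 in SNS-CKO cornea 0.19.

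Some signs also turned, and the cause was not tested. With the other reading of the strain names these were Csf1r (0.056) and Lyz2 (−2.46) in SNS-CKO TG, Cd68 (0.035) and Spi1 (0.12) in SNS-CKO cornea, and the strain difference of Lyz2 (2.28). Csf1r in MS-CKO TG was 0.024 with the B2 tag of the names as a term. It was 0.056 among libraries with no such tag, and Cd68 in MS-CKO cornea was −0.046 among those with the tag. Spi1 in pools against cornea was 5.02 with all pools. Without each library, Csf1r ran from −0.27 to 0.091 in SNS-CKO TG and −0.17 to 0.10 in MS-CKO TG, Cd68 from −0.33 to 0.18 in SNS-CKO and −0.036 to 0.25 in MS-CKO cornea, and Spi1 from −0.13 to 0.17 and −0.30 to 0.35. In pools against cornea, Cd14 ran from −6.05 to 9.07 and Aif1 from −6.09 to 7.31. Lyz2 in MS-CKO TG kept an exact p of 0.00794 to 0.0238 without each library. Few reads per member limit what whole cornea can show, and few detected genes what the corneal pools can.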
